A study of Mus musculus with 42 samples.

Results

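Open chromatin was compared between hippocampal neurons of Ts65Dn;Brwd1+/- mice and of Ts65Dn mice, as 1 deposited list of ATAC-seq peaks for each genotype. The members were all peaks of both lists, 30244 in Ts65Dn;Brwd1+/- and 29195 in Ts65Dn, which made 59439 of the 100790 peaks in the 6 peak lists of the series. A peak was called shared when it overlapped a peak of the other list by at least 1 bp, and was otherwise called alone in its list. The study asked what returning Brwd1 to its usual copy number does to a trisomic brain. Of its 42 samples, the 6 of these lists are compared here, with 3 libraries per genotype. The libraries came from nuclei that carry the neuronal protein NeuN, sorted by flow cytometry out of frozen whole hippocampus of adult male mice. Both genotypes carried the Ts65Dn trisomy and shared a mixed strain background of DBA/2J and B6EiC3Sn/J. The Ts65Dn;Brwd1+/- animals had in addition 1 Brwd1 repro5 mutant allele from the father, which ATAC-seq peaks cannot check. Euploid mice of the same background gave a list of 15521 peaks, used as background only. Lists of SMARCA2/4 ChIP-seq peaks, from unsorted hippocampus of adult male euploid, Ts65Dn and Ts65Dn;Brwd1+/- mice of 6 to 8 weeks with 4 immunoprecipitated samples per genotype, each 1 hippocampus from each of 2 pooled animals, served for overlaps only. How the 3 libraries of a genotype were combined is not given in the sources used here, so no value below has an error between animals and no p-value is given.

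ATAC-seq uses a transposase that inserts sequencing adapters where DNA is not covered by nucleosomes, so a peak marks an accessible promoter, enhancer or other regulatory element. BRWD1 is a bromodomain and WD repeat protein that reads modified histones, and the study examined it together with the BAF complex, an ATP-driven remodeller whose motor subunits are SMARCA2 or SMARCA4. Ts65Dn mice carry an extra chromosome that joins distal chromosome 16 to centromeric chromosome 17, and are a common model of Down syndrome. AP-1, a dimer of FOS and JUN proteins, binds enhancers that open with neuronal activity, and it is known to recruit the BAF complex in other cells.

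Sequences at the centre of 7 peaks are shown first, because gene body peaks and the AP-1 motif are described at length below. All are 200 bases of the + strand of mm10. Capitals mark matches, on either strand, to AP-1 (TGANTCA) and to the other motifs searched, which were CRE (TGACGTCA), the CTCF core (CACNAGNGG), the E-boxes CAGCTG and CAGATG, EGR (GCGTGGGCG), NRF1 (GCGCATGCG), RFX (GTTGCCA) and MEF2. The windows of Grik1 (chr16:88094343-88094542, intron), Nfia (chr4:97950417-97950616, intron) and Lingo1 (chr9:56682044-56682243, intron) lie in shared peaks that were relatively higher in Ts65Dn;Brwd1+/-. That of Bahcc1 (chr11:120268298-120268497, over a coding exon) lies in the named shared peak that was lowest there. Those of C330027C09Rik (chr16:49004249-49004448, over a coding exon of the gene that GENCODE calls Cip2a) and Ocrl (chrX:47962738-47962937, outside exons) lie in peaks found only in Ts65Dn;Brwd1+/-, and that of Gm5622 (chr14:51596063-51596262, intron) in a peak found only in Ts65Dn. Nfia and Lingo1 were chosen after their values were seen, as the 2 highest pairs with an AP-1 match at promoters or gene bodies of protein-coding genes.
Grik1: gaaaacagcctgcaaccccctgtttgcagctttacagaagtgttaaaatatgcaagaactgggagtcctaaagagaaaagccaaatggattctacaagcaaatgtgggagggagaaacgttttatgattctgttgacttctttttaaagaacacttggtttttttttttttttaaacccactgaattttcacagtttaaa
Nfia: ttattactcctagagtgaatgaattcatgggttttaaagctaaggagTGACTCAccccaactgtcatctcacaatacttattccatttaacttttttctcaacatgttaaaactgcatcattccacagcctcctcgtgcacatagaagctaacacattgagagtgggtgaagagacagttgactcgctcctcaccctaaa
Lingo1: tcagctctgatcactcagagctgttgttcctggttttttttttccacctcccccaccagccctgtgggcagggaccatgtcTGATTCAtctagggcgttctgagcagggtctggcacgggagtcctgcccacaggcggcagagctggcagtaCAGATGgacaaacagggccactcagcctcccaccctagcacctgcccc
Bahcc1: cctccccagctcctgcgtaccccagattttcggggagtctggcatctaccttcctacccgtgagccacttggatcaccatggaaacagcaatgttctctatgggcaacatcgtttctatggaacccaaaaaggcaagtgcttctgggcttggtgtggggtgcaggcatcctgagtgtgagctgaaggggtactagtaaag
C330027C09Rik: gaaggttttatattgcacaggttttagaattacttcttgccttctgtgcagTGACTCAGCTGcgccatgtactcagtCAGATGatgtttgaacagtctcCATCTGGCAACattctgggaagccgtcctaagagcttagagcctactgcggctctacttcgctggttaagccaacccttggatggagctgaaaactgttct
Ocrl: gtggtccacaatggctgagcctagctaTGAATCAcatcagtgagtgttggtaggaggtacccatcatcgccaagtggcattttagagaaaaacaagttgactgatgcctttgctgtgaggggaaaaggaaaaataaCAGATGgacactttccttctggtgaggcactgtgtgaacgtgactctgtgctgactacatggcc
Gm5622: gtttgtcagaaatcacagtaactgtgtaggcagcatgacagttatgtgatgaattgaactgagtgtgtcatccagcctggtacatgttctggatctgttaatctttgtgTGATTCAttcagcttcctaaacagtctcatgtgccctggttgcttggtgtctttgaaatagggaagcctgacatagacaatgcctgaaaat
The Grik1 and Bahcc1 windows held no match. In C330027C09Rik the AP-1 match TGACTCA overlaps an E-box (CAGCTG), and the window holds 2 more E-boxes and an RFX match.

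Most open regions were found in both genotypes. Of the Ts65Dn;Brwd1+/- peaks 23645 (78.2%, 95% Wilson interval 77.7 to 78.6) overlapped a Ts65Dn peak, and of the Ts65Dn peaks 23650 (81.0%, 80.6 to 81.5) overlapped a Ts65Dn;Brwd1+/- peak. The remainder, 6599 peaks (21.8%) alone in Ts65Dn;Brwd1+/- and 5545 (18.99%) alone in Ts65Dn, were weak and narrow. Their median fold enrichment, the height of a peak over its local background, was 3.10 and 3.46 against 3.84 and 4.50 in shared peaks, and their median width was 241 and 240 bp against 388 bp. Only 347 (5.26%) and 485 (8.75%) of them had a peak of the other list within 250 bp. Intervals here and below cover counting error only.

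The share of shared peaks followed their height. It was 56.0% in Ts65Dn;Brwd1+/- and 53.1% in Ts65Dn for peaks of fold enrichment below 2.5, and 92.5 and 84.5% between 4 and 4.5. From a fold enrichment of 7 on, 2079 of 2080 Ts65Dn peaks and 99.8% of Ts65Dn;Brwd1+/- peaks were shared. Among peaks of fold enrichment of 5 or more, 14 of 4941 were alone in Ts65Dn;Brwd1+/- and 68 of 8797 were alone in Ts65Dn. Strong peaks held by 1 genotype alone were thus very few in both lists.

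**Figure D1:**
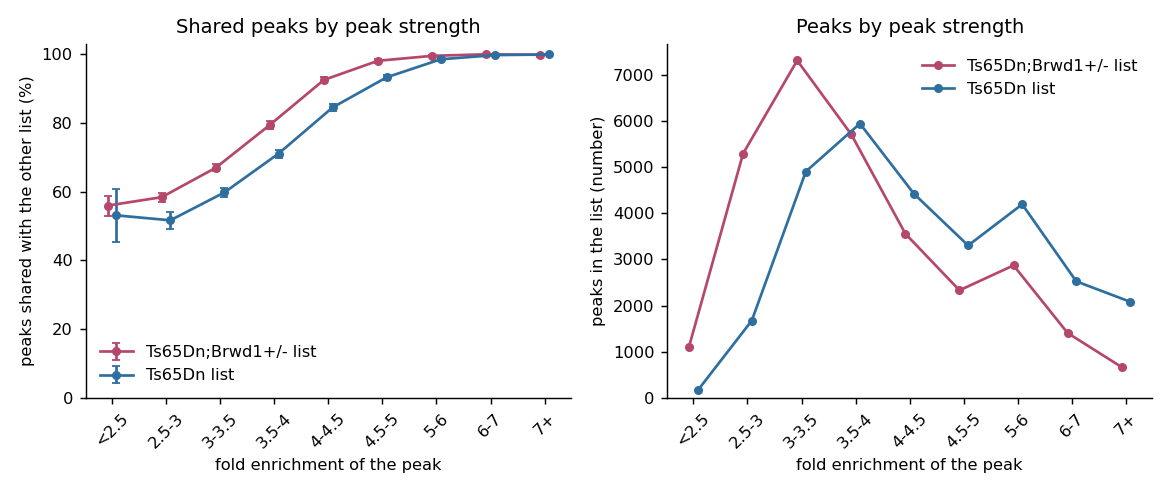
Left, percent of the peaks of each list that overlap a peak of the other list by at least 1 bp (y axis) by fold enrichment (x axis), with 95% Wilson intervals. Right, number of peaks in each bin of fold enrichment. The shared percent climbs from 56.0 and 53.1 in the lowest bin to over 99 in the highest, and the Ts65Dn list holds more strong peaks.

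The lists differed in scale. The median fold enrichment was 3.60 in Ts65Dn;Brwd1+/-, 4.19 in Ts65Dn and 4.01 in euploid, and 16.3, 30.1 and 24.3% of the peaks reached 5. Fold enrichment values fell on steps from which the background under a peak could be read for 17.9 and 20.5% of peaks, and its commonest value was 10.9 reads in Ts65Dn;Brwd1+/-, 31.7% more than the 8.30 reads in Ts65Dn. The part of this background, and of sequencing depth, in the difference of scale was not tested, and the depth of each library is unknown from these lists. Single peaks are therefore compared below relative to the shift common to all pairs.

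Marker genes were counted as a description of the sort. Of all protein-coding genes, 11392 had a peak in Ts65Dn;Brwd1+/- and 11410 in Ts65Dn. What share of all such genes these make was not computed, so the counts below do not show enrichment or depletion. Of 16 markers of glutamatergic hippocampal neurons 13 had a peak in Ts65Dn;Brwd1+/- and 15 in Ts65Dn, and all 12 pan-neuronal markers had peaks in both. Of 12 markers each, 4 astrocyte markers in Ts65Dn;Brwd1+/- and 6 in Ts65Dn had a peak, as had 4 and 4 of the oligodendrocyte lineage, 4 and 4 of microglia and 4 and 5 of endothelium. Of 16 GABAergic interneuron markers 5 and 7 had a peak. The glial and vascular genes Aqp4, Mog, Mag, Olig1, Olig2, Cx3cr1, Csf1r, Tmem119, Cldn5 and Tek had none in either list, but neither had the neuronal markers Gad2, Slc32a1, Lhx6, Dlx2, Sst, Pvalb, Vip, Erbb4 and Prox1, while the astrocyte genes Slc1a2, Slc1a3 and Aldh1l1 had peaks in both. In such bulk nuclei, fewer cells of a type and less signal per cell cannot be told apart. Xist, the transcript of inactive X chromosomes, had no peak in these male samples.

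Peaks alone in Ts65Dn;Brwd1+/- lay inside genes more often than those alone in Ts65Dn. Gene bodies, meaning positions in a gene away from its promoter, held 47.1% (45.9 to 48.3) of the former and 35.9% (34.7 to 37.2) of the latter. Proximal promoters held 8.29% (7.65 to 8.98) and 14.2% (13.3 to 15.1). Intergenic peaks made up 28.0 and 30.8%. Shared peaks looked different from both, with 42.3% in proximal promoters and 24.8% in gene bodies in the Ts65Dn;Brwd1+/- list.

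**Figure D2:**
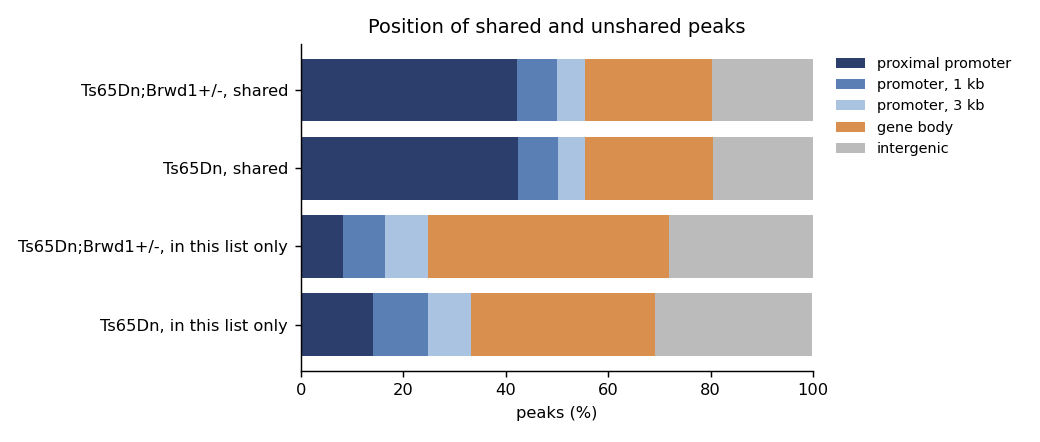
Percent of peaks (x axis) by annotated region for shared and alone peaks of each list (y axis). Gene bodies hold 47.1% of the peaks alone in Ts65Dn;Brwd1+/- and 35.9% of those alone in Ts65Dn, and proximal promoters hold 42.3% of shared Ts65Dn;Brwd1+/- peaks.

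Read the other way, proximal promoters were nearly always shared (94.8% of those in Ts65Dn;Brwd1+/- and 92.7% of those in Ts65Dn), whereas 65.4 and 74.7% of gene body peaks were. The Ts65Dn;Brwd1+/- list held 8976 gene body peaks and the Ts65Dn list 7859. Coding exons lay under 3.77% and 3.11% of the gene body peaks that were alone and 2.74% and 2.73% of those shared, so nearly all of them were outside coding sequence. Of gene body peaks alone in Ts65Dn;Brwd1+/-, 41.4% were in genes longer than 200 kb, against 36.4% of those alone in Ts65Dn and 38.9% of those shared.

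The number of peaks per gene was compared next. Of 14945 genes with a peak in either list, 3285 had more peaks in Ts65Dn;Brwd1+/-, 2871 had more in Ts65Dn and 8789 had as many in both. Only 3 genes had 5 or more additional peaks in Ts65Dn, namely Lpp (5 against 10 peaks), Rai1 (6 against 11) and Rimbp2 (7 against 12). In Ts65Dn;Brwd1+/- there were 41 such genes, with a median length of 725 kb. That is long beside the 24.2 kb of all genes with a peak, but close to the 701 kb of the 53 genes with 27 or more peaks in both lists together, the median number of the 41, and the groups share genes. All genes named in the next paragraph and these 3 were chosen after their values were seen.

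Lsamp, a cell adhesion protein of limbic neurons, had 22 peaks in Ts65Dn;Brwd1+/-, 10 in Ts65Dn and 4 in euploid, and 15 of the 22 were alone. Rbfox1, a neuronal splicing factor, had 21, 10 and 2 peaks. Sox5, a transcription factor of cortical projection neurons, had 15, 4 and 2, and Erc2, a scaffold of the presynaptic active zone, had 21, 11 and 6. These 4 genes each had more peaks in Ts65Dn;Brwd1+/- than in either other list. The adaptor of reelin signalling Dab1 had 34, 24 and 5 peaks, the calcium channel subunit Cacna2d3 had 20, 11 and 5, and the synaptic adhesion gene Tenm2 had 26, 17 and 7. A large gene need not differ, since Kalrn, a regulator of dendritic spines, had 26 peaks in both and 9 in euploid. The euploid list is the shortest of the 3.

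Counted by gene, 12337 genes had a peak in both lists, which is 90.5% of the 13628 genes with a peak in Ts65Dn;Brwd1+/- and 90.4% of the 13654 in Ts65Dn. With no peak at all in the other list, 1291 genes had a peak in Ts65Dn;Brwd1+/- and 1317 in Ts65Dn. These counts depended on the height required, with 292 and 2993 genes when both lists were held to a fold enrichment of 5 or more, and 135 and 199 when such peaks were set against the full other list. By proximal promoter the numbers were 8923 genes in both, 906 in Ts65Dn;Brwd1+/- and 1081 in Ts65Dn. By gene body peak they were 3511 in both, 935 and 621, so the order of the 2 genotypes was opposite at promoters and in gene bodies.

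Of the 6599 peaks alone in Ts65Dn;Brwd1+/-, 248 (3.76%) overlapped a euploid peak, and of the 5545 alone in Ts65Dn 330 (5.95%) did, against 60.3 and 60.2% of shared peaks. Seen from the euploid list, 94.5% of its peaks were in both trisomic lists, 2.24% only in Ts65Dn, 1.68% only in Ts65Dn;Brwd1+/- and 1.60% in neither. Peaks of SMARCA2/4 binding in euploid hippocampus, a measure from other animals and libraries, overlapped 9.11% of the peaks alone in Ts65Dn;Brwd1+/-, 12.3% of those alone in Ts65Dn, and 30.3 and 30.5% of the shared ones. The SMARCA2/4 peaks of Ts65Dn;Brwd1+/- animals overlapped 0.379 and 1.21% of the peaks alone and 2.61 and 2.67% of those shared. Those of Ts65Dn animals overlapped 0.349 and 0.577% of the peaks alone and 1.83 and 1.83% of those shared. The length of each SMARCA2/4 list is not given here, and a shorter list overlaps fewer peaks, so the shares cannot be compared between these lists. The overlap of peaks alone with euploid ATAC peaks depended on the height required. It was 28.8 and 45.4% with the same number of strongest peaks from each list. Among peaks with a fold enrichment of 5 or more in both lists it was 67.0 and 84.7%. Under either setting a peak called alone can overlap a weaker peak of the full other list.

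The strongest peaks alone in Ts65Dn;Brwd1+/- reached a fold enrichment of 7.07, at the promoter of Lypla1, an enzyme that removes palmitate from proteins (chr1:4807479-4808218). It was the first entry of that list, whereas the lists of Ts65Dn and euploid began at Tcea1 with 7.08 and 6.89, and whether an earlier entry is missing there was not tested. The other 9 named ones lay between 4.86 and 5.78. They were near Rc3h2, a regulator of mRNA decay (5.78), C330027C09Rik, an inhibitor of the phosphatase PP2A (5.70), Ocrl, the inositol phosphatase of Lowe syndrome (5.28), Camk1d, a calmodulin kinase (5.11), Cobl, an actin nucleator (5.11), E130114P18Rik (5.11), Smad5, an effector of BMP signals (5.04), Ano4 (5.03) and Herc3 (4.86). Of these 10, Cobl and Herc3 had a euploid peak at the same place, of 5.96 and 4.29.

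The 10 named peaks alone in Ts65Dn had fold enrichments from 5.43 to 6.56, and the highest of all was an intergenic peak of 7.84. The highest named ones lay near Il31ra, a cytokine receptor (6.56, euploid 6.17), and over a coding exon of Slc1a6, a glutamate transporter (6.34, no euploid peak). The promoter of Dlg3, a scaffold of glutamate receptors on chromosome X, had 6.02 and no euploid peak, and an intron of Slc7a11, the cystine and glutamate exchanger, had 5.70 with a euploid peak of 3.98. Others were at Krtdap (6.08, euploid 3.77), Gm5622 (6.02, euploid 4.29), Gm11168 (5.81, euploid 5.71, wholly in repeats), Plekhm3 (5.74), Khdrbs2, an RNA-binding protein of neurons (5.49), and Atmin (5.43). So 5 of these 10 had a euploid peak, and the highest shared peaks reached far more, 20.5 in Ts65Dn;Brwd1+/- and 28.5 in Ts65Dn.

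Peak heights were compared at 22405 one-to-one pairs, in which each peak overlapped only the other. The median log2 ratio of fold enrichment, Ts65Dn;Brwd1+/- over Ts65Dn, was -0.23 (95% order-statistic interval -0.23 to -0.22), a ratio of 0.855, from medians of 3.85 and 4.51. In 14.7% of pairs Ts65Dn;Brwd1+/- was higher. The ratios ran from -1.02 to 0.57 with an SD of 0.21, and across pairs the log2 fold enrichments of the 2 lists had a Pearson r of 0.857, which is a description over peaks that share their libraries. In the 2497 pairs with whole read pileups in both lists, the median counting error of a log2 ratio was 0.31, above the SD of 0.23, and 1.40% of these pairs lay beyond 1.96 counting errors from the common shift. Single ratios therefore carry no more than a description.

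After centring on the common shift, 108 pairs (0.482%) were over 1.5-fold higher in Ts65Dn;Brwd1+/- and 67 (0.299%) over 1.5-fold lower, and none passed 2-fold. Without centring the counts were 0 and 942, so a direction below is always relative to the shift.

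**Figure D3:**
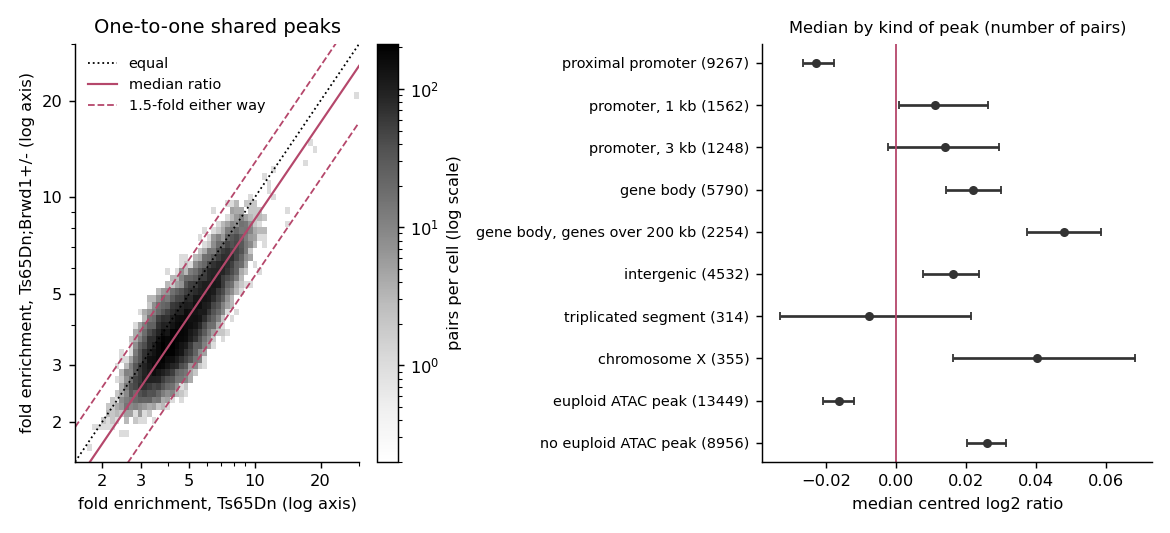
Left, number of one-to-one pairs (shade) by fold enrichment in Ts65Dn (x axis) and in Ts65Dn;Brwd1+/- (y axis), both on log axes, with lines for equal height, the common shift and 1.5-fold around it. Right, median centred log2 ratio by kind of peak with 95% intervals, which runs from -0.02 at proximal promoters to 0.05 in gene bodies of genes over 200 kb.

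The 10 named pairs that were highest in Ts65Dn;Brwd1+/- were 6 intronic peaks and 4 promoter peaks. Ubr1, a ubiquitin ligase, led with a promoter peak (chr2:120970379-120970922) of 5.16 in Ts65Dn;Brwd1+/- and 3.66 in Ts65Dn, a centred log2 ratio of 0.72. In introns, Rabgap1l, a regulator of RAB proteins (chr1:160548274-160548535), had 5.20 and 3.76, and Nipbl, the loader of cohesin (chr15:8317370-8317702), had 5.45 and 3.98, centred 0.69 and 0.68. The peak of Nipbl was 3.24 in euploid, and neither Ubr1 nor Rabgap1l had one there.

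Grik1, a kainate receptor subunit that is itself triplicated (chr16:88094182-88094702, intron), had 5.17 and 3.81 and no euploid peak, centred 0.67. The deubiquitinase Usp8 had 6.32 and 4.62 (euploid 4.36, centred 0.68) and the chromatin regulator Setd5 6.57 and 4.96 (euploid 4.92, centred 0.63), both in introns. The list held further the orphan receptor Gpr22 (5.65 and 4.11, centred 0.69), the mismatch repair gene Pms1 (7.93 and 5.90, euploid 6.12, centred 0.65), the cofilin phosphatase Ssh2 (5.61 and 4.19, centred 0.65) and Stxbp3, a regulator of membrane fusion (5.72 and 4.30, centred 0.64). In the 4 pairs with a euploid peak, those of Nipbl, Usp8, Pms1 and Setd5, the euploid value was nearer to Ts65Dn, which is a description only, since the pairs were picked for a high ratio to Ts65Dn and the lists differ in scale. No euploid peak overlapped the other 6, those of Ubr1, Rabgap1l, Gpr22, Grik1, Ssh2 and Stxbp3.

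The 10 named pairs lowest in Ts65Dn;Brwd1+/-, among those at promoters or gene bodies of protein-coding genes with a fold enrichment of 5 or more in at least 1 list, were near genes of mixed roles. Bahcc1, a chromatin reader (chr11:120268217-120268578), had 2.92 in Ts65Dn;Brwd1+/-, 5.92 in Ts65Dn and 3.37 in euploid, centred -0.79. Map3k6, a stress kinase, had 3.59, 7.08 and 3.43 (centred -0.75), and Qpct, a glutaminyl cyclase, 3.10, 5.91 and 4.08 (-0.70). In these 3 peaks the euploid value was nearer to Ts65Dn;Brwd1+/- than to Ts65Dn. That also held for Ssbp3, a partner of LIM-domain factors (2.72, 5.16 and 3.57, centred -0.69), Akr1e1, an aldo-keto reductase (3.86, 7.20 and 5.02, centred -0.68), Tmem114 (3.03, 5.65 and 3.77, centred -0.67), Snai3, a repressor of the Snail family (2.69, 5.00 and 3.01, centred -0.67) and 9030617O03Rik (2.89, 5.37 and 3.72, centred -0.67). The actin-binding gene Coro1c (2.82 and 5.30, centred -0.69) and Neb, the muscle gene of nebulin (2.77 and 5.16, centred -0.67), had no euploid peak. These pairs were picked for a low ratio to Ts65Dn and the lists differ in scale, so the place of the euploid value is a description.

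The 10 strongest promoters were picked among shared pairs, so their peaks in both trisomic lists were given by the choice. All 10 also had a euploid peak. Golph3l, a Golgi protein, had 10.9 in Ts65Dn;Brwd1+/-, 11.9 in Ts65Dn and 7.64 in euploid (centred 0.10), Mbd1, a reader of methylated DNA, had 9.97, 12.1 and 9.73, and Kifap3, the kinesin adaptor, had 8.55, 11.1 and 9.83. Lrif1, a partner of heterochromatin protein, was higher in Ts65Dn;Brwd1+/- even without centring, with 10.1, 9.38 and 7.69 (centred 0.33). The small RNA gene Gm23935 was at the other end with 9.16, 13.8 and 12.5 (centred -0.37). Gm10060 (8.72, 11.1 and 7.53), Ccdc150 (9.14, 10.5 and 8.89), Ift57, a cilium gene (9.47, 10.1 and 8.66), 1600023N17Rik (9.66, 9.92 and 9.40) and Ikbip (9.11, 10.2 and 9.47) completed the 10. All 10 were within 1.5-fold after centring.

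By kind of peak the centred medians were close to 0. They were -0.02 at proximal promoters (9267 pairs), 0.02 in gene bodies (5790) and 0.02 between genes (4532). Gene body pairs in genes over 200 kb had 0.05 (2254 pairs, 0.04 to 0.06) with 20 higher (0.887%) and 3 lower (0.133%) past 1.5-fold, where 0.482 and 0.299% of all pairs were, and those in shorter genes had a centred median of 0.00 (3532) with 26 higher (0.736%) and 18 lower (0.510%). The share of higher pairs was thus above that of all pairs in gene bodies of either length. In the shorter genes the share of lower pairs was above that of all pairs too. Pairs with a euploid peak had -0.02 (13449) and those without one 0.03 (8956). Pairs that overlapped a euploid SMARCA2/4 peak had -0.01 (6664), against 0.01 for the others (15741).

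Base composition moved with these values. In 5 classes by GC content of the 200 bp centre, from 29 to 48.5% GC up to 68 to 91%, the centred median was 0.08, 0.01, -0.02, -0.03 and -0.02. The percent alone fell with GC in both lists, from 35.7 to 4.42% in Ts65Dn;Brwd1+/- and from 29.4 to 9.37% in Ts65Dn. Median GC was 50% for the 108 higher pairs and 55.5% for the 67 lower pairs. Chromosome medians, centred, ran from -0.08 on chromosome 7 to 0.06 on chromosome 3. Across the 19 autosomes, which share their libraries, the median log2 ratio of a chromosome and its median GC had a Pearson r of -0.73 (Spearman rho -0.73). Centring within the 5 GC classes left the chromosome medians nearly as they were, at -0.08 on chromosome 7 and 0.06 on chromosome 3, and chromosome X, with a median GC of 60.5%, lay at 0.04 before and 0.05 after, against the trend of the autosomes. When each class was centred on its own median, a choice made after seeing the data, 78 pairs were higher and 76 lower. The median of long genes was then 0.02. Those of proximal promoters, gene bodies and intergenic pairs were -0.001, 0.001 and -0.007, against -0.02, 0.02 and 0.02 before, so their order was no longer seen. The part of base composition in the counts of higher and lower pairs was not tested further.

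AP-1 was the motif that told the alone peaks of the 2 lists apart most clearly. It was found in 975 of 6594 windows alone in Ts65Dn;Brwd1+/- (14.8%, 13.9 to 15.7), in 492 of 5534 alone in Ts65Dn (8.89%, 8.17 to 9.67), and in 8.45 and 8.48% of shared windows. The same window length at all 32851 RefSeq promoters held it in 5.57%. In gene bodies the values were 16.97% (15.7 to 18.3) and 9.39% (8.19 to 10.8) for alone peaks and 14.5 and 14.3% for shared ones, so the alone peaks of Ts65Dn;Brwd1+/- lay above the shared level and those of Ts65Dn below it. Between genes they were 15.0% (13.4 to 16.7) and 11.9% (10.5 to 13.6), and 14.2 and 14.7% when shared. In the 3 kb promoter class they were 16.01% (13.2 to 19.3) and 7.31% (5.28 to 10.0). At proximal promoters they were 5.48% (3.87 to 7.72) and 3.05% (2.06 to 4.50), and in the 1 kb promoter class 9.83 and 7.50%. The intervals overlapped at proximal promoters, in the 1 kb class and between genes, and did not in gene bodies and the 3 kb class.

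The difference in AP-1 was seen in 3 of 5 classes of GC content. In gene body and intergenic peaks, the share of alone windows with AP-1 was 20.1% (18.4 to 21.9) in Ts65Dn;Brwd1+/- against 13.2% (11.6 to 15.0) in Ts65Dn at 29 to 48.5% GC. It was 15.7 against 11.2% at 48.5 to 53.5% GC and 12.6 against 6.61% at 53.5 to 59%, with intervals that did not overlap. At 59 to 68% GC it was 5.26 and 4.96%, with intervals that did, and at 68 to 91% GC 0 of 22 windows and 2 of 53 held it. Matches with C or G in the middle, the usual AP-1 site, gave 11.2 and 6.07% of alone windows, and those with A or T gave 4.34 and 3.07%, a division made after seeing the data.

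**Figure D4:**
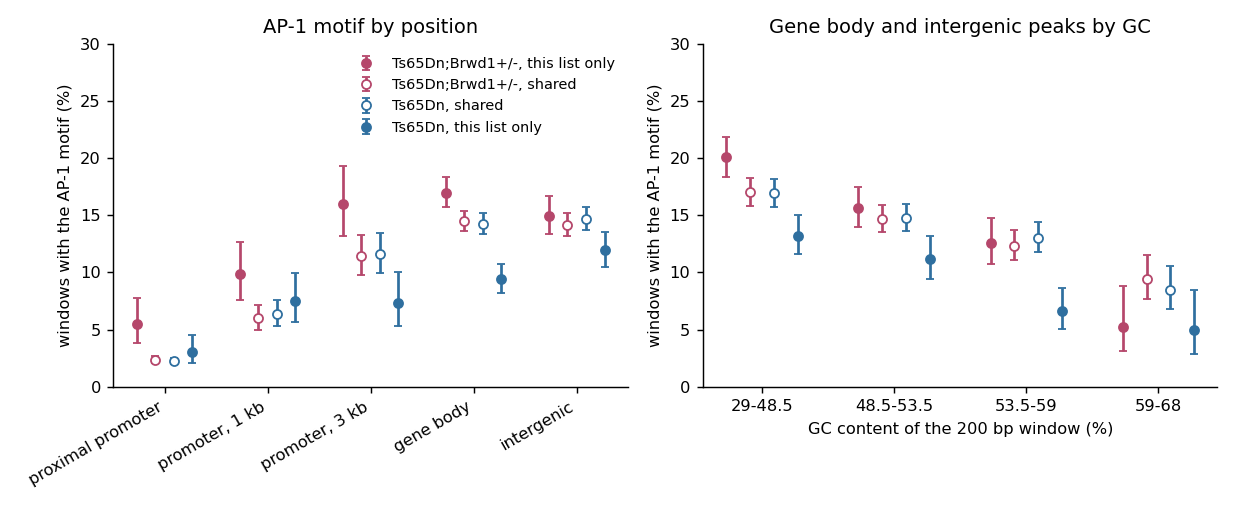
Percent of 200 bp windows at peak centres with an AP-1 match (y axis), with 95% Wilson intervals. Left, by region for shared and alone peaks of each list; right, by class of GC content for gene body and intergenic peaks. In gene bodies the alone peaks hold AP-1 in 16.97% in Ts65Dn;Brwd1+/- and 9.39% in Ts65Dn, with the shared peaks between them.

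Heights at shared peaks differed along with AP-1 too. Of the 108 higher pairs 20 held it (18.5%, 12.3 to 26.9), of the 67 lower pairs 2 (2.99%, 0.822 to 10.2), and of the pairs within the fold 8.71%. These groups differed in region, with 42.6, 31.3 and 25.7% of them in gene bodies. Within gene bodies 0.833% of pairs with AP-1 and 0.788% of those without it were higher, and 0 and 0.424% were lower. Between genes 1.24 and 0.415% were higher, and 0.310 and 0.415% were lower. Gene body pairs with AP-1 had a centred median of 0.08 (840 pairs) and those without it 0.01 (4950), or 0.04 and -0.01 when centred within GC classes. Examples are Nfia, a transcription factor (chr4:97950376-97950656), with 4.86 in Ts65Dn;Brwd1+/- and 3.54 in Ts65Dn, and Lingo1, a regulator of axon growth (chr9:56681951-56682336), with 3.69 and 2.69. Neither had a euploid peak, and both centred log2 ratios were 0.68.

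Other motifs differed less. CAGATG was in 33.6% of windows alone in Ts65Dn;Brwd1+/- and in 28.3% of those alone in Ts65Dn, with 38.9 and 32.4% in gene bodies but 34.1 and 34.5% between genes. CAGCTG was in 19.3 and 19.4%, the CTCF core in 4.94 and 4.61%, RFX in 5.00 and 4.26%, MEF2 in 0.652 and 0.885%, CRE in 0.591 and 0.398%, NRF1 in 0.273 and 0.434% and EGR in 0.273 and 0.289%. At the same RefSeq promoters these motifs were in 11.95% (CAGATG), 10.3% (CAGCTG), 2.52% (CTCF), 2.65% (RFX), 0.368% (MEF2), 0.828% (CRE), 0.855% (NRF1) and 0.353% (EGR) of windows. The 127 pairs with MEF2 had a centred median of -0.06 (-0.11 to 0.01). A match to a motif describes the sequence and does not show that a factor was bound.

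Gene lists were compared by the centred median of their pairs, which is 0.00 over all pairs, and by their peaks that were alone, beside the 78.2 and 81.0% of all peaks that were shared. Pairs of the 24 activity-regulated genes had a median of 0.11 (34 pairs, 0.05 to 0.18), but -0.11 without centring, and none passed 1.5-fold. The promoter of Nr4a2, a nuclear receptor induced by activity, had 3.75 in Ts65Dn;Brwd1+/- and 3.20 in Ts65Dn (centred 0.46), whereas that of its relative Nr4a1 had 3.93 and 5.66 (centred -0.30) and 3.47 in euploid. The lowest pair was 1 of the 2 at Fosb, an AP-1 subunit (-0.41). Fos itself had 3.77, 4.26 and 3.10 in euploid (centred 0.05), Arc, the spine regulator, 3.47, 3.85 and 3.17 (0.08), and the 5 pairs of the growth factor gene Bdnf had a median of 0.18. Of the 24 genes 21 had a peak in both lists, 1 in Ts65Dn;Brwd1+/- only and 1 in Ts65Dn only, with 5 of 39 peaks alone in Ts65Dn;Brwd1+/- and 2 of 36 in Ts65Dn.

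Counts of peaks in synaptic gene lists are given beside the shares of all peaks, since 78.2% of all Ts65Dn;Brwd1+/- peaks but 65.4% of those in gene bodies were shared. The 21 genes of synaptic vesicle release had 82 peaks in Ts65Dn;Brwd1+/-, 68 in Ts65Dn and 33 in euploid, of which 50 of 82 and 51 of 68 were shared, and 49 pairs with a centred median of 0.10 (0.01 to 0.20). Of these pairs 3 were over 1.5-fold higher, where 0.482% of all pairs were, among them the promoters of Syp, which encodes synaptophysin (5.12 and 3.98, euploid 5.04, centred 0.59), and Rims2 of the active zone (4.05 and 3.04, euploid 3.35, centred 0.64) and a pair at Nrxn3, a presynaptic adhesion receptor (0.65). A pair of Syn3, which encodes a synapsin, was the lowest (-0.41). Glutamate receptor and LTP genes had 137, 121 and 60 peaks, of which 73.0% (65.0 to 79.7) and 81.8% were shared, near the shares of all peaks, and 94 pairs with a median of 0.08 (0.03 to 0.11), from -0.42 at the scaffold Shank2 to 0.67 at Grik1. Shank2 had 10 peaks in Ts65Dn;Brwd1+/- with none alone and 14 in Ts65Dn with 5 alone.

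Axon guidance and morphology genes had 170, 143 and 50 peaks, of which 68.2 and 79.0% were shared, and 110 pairs with a median of 0.06 (0.00 to 0.10). The promoter of the ephrin receptor Epha7 had 8.12 and 6.75 (euploid 6.02, centred 0.49), and the adhesion gene Ncam1 had both the highest pair (0.60) and the lowest (-0.48). Voltage-gated channel genes had 123, 102 and 45 peaks, of which 67.5 and 81.4% were shared, and a median of 0.03 (79 pairs), between -0.43 at the calcium channel Cacna1a and 0.43 at the potassium channel Kcnq3. GABA receptor and synapse genes had 59, 54 and 27 peaks, of which 78.0 and 85.2% were shared, and a median of 0.06 (44 pairs, -0.08 to 0.14), with extremes at the receptor genes Gabbr2 (0.47) and Gabrd (-0.47). For pan-neuronal genes, 37 of 76 peaks were alone in Ts65Dn;Brwd1+/- (11 at Rbfox1, 11 at Rbfox3 and 8 at Syt1) and 10 of 49 in Ts65Dn, and Rbfox3, which encodes the NeuN antigen used for the sort, had 16, 7 and 1 peaks. Glutamatergic markers had 44, 40 and 19 peaks and a median of 0.08 (29 pairs), from -0.56 at Emx1 (3.03 and 5.22, euploid 3.41), a cortical transcription factor, to 0.60 at the kainate receptor Grik4.

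**Figure D5:**
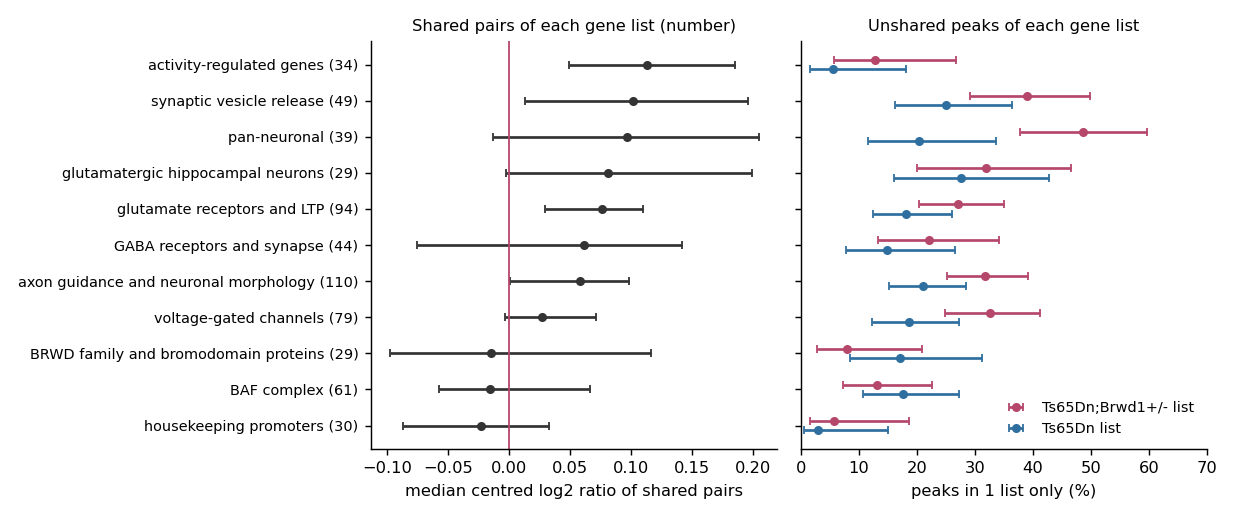
Left, median centred log2 ratio of the pairs of each gene list with at least 20 pairs, with 95% order-statistic intervals and the value of all pairs at 0. Right, for the same gene lists, percent of peaks that are alone in Ts65Dn;Brwd1+/- or in Ts65Dn. Activity-regulated genes have the highest median (0.11), and among the lists drawn pan-neuronal genes have the largest percent alone in Ts65Dn;Brwd1+/-.

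Chromatin regulators and housekeeping genes stood at the common shift. The 31 BAF complex genes had 76, 80 and 40 peaks, 10 and 14 alone, and a median of -0.02 (61 pairs, -0.06 to 0.07). The promoter of Smarca4, a motor subunit, had 6.72 in Ts65Dn;Brwd1+/-, 9.23 in Ts65Dn and 7.49 in euploid, and its 2 pairs were at -0.55 and -0.23, the lowest of the complex. Smarca2, the other motor subunit, had 5.39, 6.41 and 6.02 at its promoter and a median of -0.03 over 3 pairs, and Bcl11b had the highest pair (0.40). Bromodomain genes had 38, 41 and 21 peaks, 3 and 7 alone, and a median of -0.01 (29 pairs), with 1 pair over 1.5-fold higher at Atad2b (0.63), an ATPase, and the lowest at Kat2b (-0.35), an acetyltransferase. The 25 housekeeping genes had 35, 34 and 29 peaks and a median of -0.02 (30 pairs, -0.09 to 0.03), with Gapdh at 0.24 and the RNA polymerase gene Polr2a at -0.43.

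The triplicated segment, present in both genotypes, was taken as chr16 from Mrpl39 to the distal end and chr17 from the centromere to Pde10a. It held 473 peaks in Ts65Dn;Brwd1+/- (1.56%), 390 in Ts65Dn (1.34%) and 156 in euploid (1.01%). Of these 139 were alone in Ts65Dn;Brwd1+/- and 57 in Ts65Dn, so that 70.6% (66.4 to 74.5) and 85.4% (81.5 to 88.5) were shared. Its 314 pairs had a centred median of -0.01 (-0.03 to 0.02), with 3 higher (0.955%) and 1 lower (0.318%) past 1.5-fold, against 0.482 and 0.299% of all pairs. The interval of its median held 0, while more of its peaks were alone in Ts65Dn;Brwd1+/- than the 21.8% of the whole list. On chromosome X the order was opposite, with 37 of 412 peaks alone in Ts65Dn;Brwd1+/- and 102 of 479 in Ts65Dn, and 355 pairs at 0.04.

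Brwd1 itself (chr16:95992092-96082526) was open at its promoter in all lists. The Ts65Dn;Brwd1+/- list had peaks of 3.88 (964 bp) and 2.85 (438 bp) there, the Ts65Dn list 1 peak of 4.21 over both (1556 bp), and the euploid list peaks of 3.30 and 3.03. Because 2 peaks met 1, Brwd1 gave no one-to-one pair. The second Ts65Dn peak of Brwd1, inside the gene, was alone (3.04, 200 bp).

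Other triplicated genes varied around the common shift. The amyloid precursor gene App had 7, 8 and 2 peaks and a median of -0.05 over 7 pairs, and Kcnj6, a potassium channel, had 11, 13 and 7 peaks and 0.07 over 10 pairs. Dyrk1a, a kinase gene, had 6, 3 and 2 peaks, 4 of the 6 alone, and Ttc3, a ubiquitin ligase gene, had 5, 1 and 1. The glutamate receptor gene Grik1 had 7, 5 and 1 peaks and 0.24 over 4 pairs, and Synj1, a phosphatase of synaptic vesicle recycling, 4, 3 and 2 peaks and 0.17 over 3. The promoters of Rcan1, an inhibitor of calcineurin (4.37 and 6.27, euploid 5.62, centred -0.30), and Hmgn1, a nucleosome-binding protein (4.80 and 6.29, euploid 5.73, centred -0.16), were on the lower side. Sod1, the superoxide dismutase, had 1, 1 and 2 peaks and -0.06. Dyrk1a, Ttc3, Grik1 and Synj1 had more peaks in Ts65Dn;Brwd1+/-, and App and Kcnj6 had more in Ts65Dn.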

How the data were processed

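Peak lists of neuronal ATAC-seq from adult male mouse hippocampus were analysed, 1 per genotype, each from 3 libraries. According to the study's methods, the authors aligned reads to mm10 with HISAT2, kept uniquely mapped reads, removed duplicates with SAMtools, called peaks with MACS with reads shifted and extended, and annotated peaks with the region tool of diffReps. The deposited fold enrichment is a linear ratio over local background, and the deposited q-value was at most 0.000977 and 0.000916 in the Ts65Dn;Brwd1+/- and Ts65Dn lists. Per the labels, each list was assigned to its genotype. The RNA read counts were not used here, and depth per library is unknown. The members and gene lists were chosen with earlier results of these data known.

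Overlaps, one-to-one pairs, Wilson and order-statistic 95% intervals were computed with Python 3.11.15, NumPy 2.4.6, pandas 2.3.3 and SciPy 1.17.1, and figures with matplotlib 3.10.9. Scripts were first tested on simulated data. Log2 ratios were centred on the median of 21707 pairs on autosomes outside the triplicated segment. Motifs were searched in 200 bp windows of GRCm38, the build of the files, with GENCODE exons. Promoter sequences for motif shares came from RefSeq tables of the same build. Named were the 10 pairs highest and the 10 lowest after centring, and the 10 strongest peaks alone in each list, for protein-coding genes at promoters or gene bodies (for pairs, with fold enrichment of 5 or more in a list), 1 per gene. Added were the 10 strongest shared promoters, Brwd1 and other triplicated genes, and the extremes of each gene list. Alternatives varied the height and q-value required, the overlap, the centring, the fold and the motif window.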

Additional observations from a re-analysis of the deposited data

How the results depend on the processing

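No paired analysis was possible because the labels number the libraries of both genotypes alike but each deposited list pools its libraries, and for the same reason no library could be left out in turn. Of 78 alternative values of 20 results, 30 moved by less than their interval or stayed within 1.5 times the count, 47 moved further and 1 reversed. A q-value under 0.0001 and chromosomes 1 to 19 without the triplicated segment moved none of the values computed for them. Nor did leaving out chromosome X, chosen after seeing the data. These settings kept most peaks, so they could move little. The q-value setting kept 30150 of 30244 Ts65Dn;Brwd1+/- peaks and 29086 of 29195 Ts65Dn peaks.

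The share of Ts65Dn;Brwd1+/- peaks that was shared (78.2%) became 94.7% and that of Ts65Dn peaks (81.0%) 53.3% with fold enrichment of 5 or more in both lists, since the Ts65Dn list holds more such peaks. They were 79.2% each with the 14597 strongest peaks of each list, 99.7 and 99.2% for peaks of 5 or more against the full other list, 73.0 and 75.6% with reciprocal overlap of 50%, and 79.3 and 82.7% within 250 bp.

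For Ts65Dn;Brwd1+/- peaks alone, requiring 5 in both lists and the same number of strongest peaks gave 27.6 and 40.9% in gene bodies, 33.0 and 15.3% in proximal promoters, 67.0 and 28.8% over euploid ATAC peaks and 22.6 and 16.7% over euploid SMARCA2/4 peaks. For Ts65Dn peaks alone they gave 18.6 and 31.9%, 53.8 and 27.1%, 84.7 and 45.4%, and 32.5 and 23.6%. Gene bodies were more frequent in Ts65Dn;Brwd1+/- under both. A peak called alone under these settings can overlap a weaker peak of the full other list. With 5 in both lists 261 and 4110 peaks were called alone, of which only 14 and 68 had no peak in the full other list. These settings therefore cannot decide where unshared peaks lie. Genes in 1 list only were 292 for Ts65Dn;Brwd1+/- and 2993 for Ts65Dn with 5 in both lists, 135 and 199 with 5 against the full other list, and 1127 and 1463 with the same number.

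The median log2 ratio was -0.28 for pairs with 5 or more in a list, with 50 pairs higher and 21 lower. Not centred, 0 were higher and 942 lower, the median of housekeeping genes was -0.25, and that of activity-regulated genes reversed to -0.11. At a fold of 2 both counts were 0. Centred on promoter pairs, 143 were higher and 51 lower, and within 5 classes of GC content, chosen after seeing the data, 78 and 76.

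The AP-1 share of peaks alone was 8.77% in Ts65Dn;Brwd1+/- and 4.86% in Ts65Dn in 100 bp windows, 28.6% of 14 peaks and 13.2% of 68 with fold enrichment of 5 or more, and, chosen after seeing the data, 15.8 and 9.51% with the same number of strongest peaks, 11.2 and 6.07% for a middle base C or G, and 4.34 and 3.07% for A or T. Ts65Dn;Brwd1+/- was higher under each of these 5 settings. Read counts at the place of a peak missing from a list were not used here, so how far signal there lay below the threshold was not tested.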
